A study of Mus musculus with 9 samples.

Results

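The 7 genes described here belong to the senescence barrier that opposes the reprogramming of fibroblasts: the cell-cycle inhibitor genes Cdkn2a, Cdkn2b, Cdkn1a, Cdkn1b and Cdkn1c, the p53 gene Trp53, and Mdm2, whose product restrains p53. They were chosen by name from the 37273 genes of GENCODE vM1 (22367 of them protein-coding); the rule that finds their regions uses positions and no measured value. For each gene, accessible regions were collected from 20 kb upstream of the transcription start site (TSS) to 20 kb past the end of the gene on the mouse genome mm9, and those touching the promoter, taken as the 3 kb upstream of the start of any transcript, were kept apart. The measure of accessibility was the highest pileup of a region per 1000000 tags of the library (CPM), which counts tags extended to 200 bp over the summit.

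The data were ATAC-Seq libraries, in which the Tn5 transposase cuts open chromatin. Mouse embryonic fibroblasts (MEFs) from mid-gestation embryos, all carrying an IRES-EGFP cassette behind the stop codon of Oct4, were infected with pMXs retroviruses for Oct4, Sox2, Klf4 and c-Myc (OSKM). The 7 time-course libraries were MEFs at day 0 (D0), unsorted cells at day 3 (D3), Thy-1-negative cells at days 6 and 9 (D6T− and D9T−), SSEA-1-positive cells at days 12 and 16 (D12S+ and D16S+), and fully reprogrammed iPSCs. The other 2 libraries were Thy-1-negative cells at day 6 that had received siRNA against H3.3 (D6 siH3.3) or non-targeting siRNA (D6 siNT) ahead of the infection. There was 1 library per condition, so no difference below has a replicate check or a test. The intervals given cover counting error only, and they make no allowance for the summit being the highest point of its region. In these bulk libraries, a smaller share of cells with an open site and less opening per cell cannot be told apart.

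The INK4 and CIP/KIP proteins bind cyclin-dependent kinases and hold RB in the form that keeps E2F target genes off. Cdkn2a gives rise to p16Ink4a and p19Arf from separate first exons, and Arf protects p53 by binding Mdm2, the ubiquitin ligase that removes it. Growth arrest by this network is a known barrier to reprogramming, and Ink4a and Arf are textbook genes of fibroblast senescence in culture.

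Every one of the 7 genes had an accessible region at its promoter in all 9 libraries, which makes 63 of 63 pairs of gene and library. Over all protein-coding genes, a promoter region was present for 58.0% at D0 and 67.8% at D3. It was present for 68.3% and 50.4% in the Thy-1-negative cells (D6T− and D9T−), 63.0% and 63.0% in the SSEA-1-positive cells (D12S+ and D16S+) and 63.9% in iPSCs. The share was 54.3% at D6 siH3.3 and 54.8% at D6 siNT. The libraries held 13213117 to 31714845 tags and 36708 to 133132 regions. Their scale was not the same: the median over the 9818 protein-coding promoters open in all 9 libraries was 0.946 CPM (D0), 3.83 CPM (D6T−) and 1.20 CPM (iPSCs). A level is therefore also given relative to this median, or as a percentile among the protein-coding promoters with a region in its own library. Of the fibroblast markers, 5 of 6 had a promoter region at D0 and 3 of 6 in iPSCs, whereas of the pluripotency markers it was 1 of 6 at D0 and 6 of 6 in iPSCs.

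**Figure D1:**
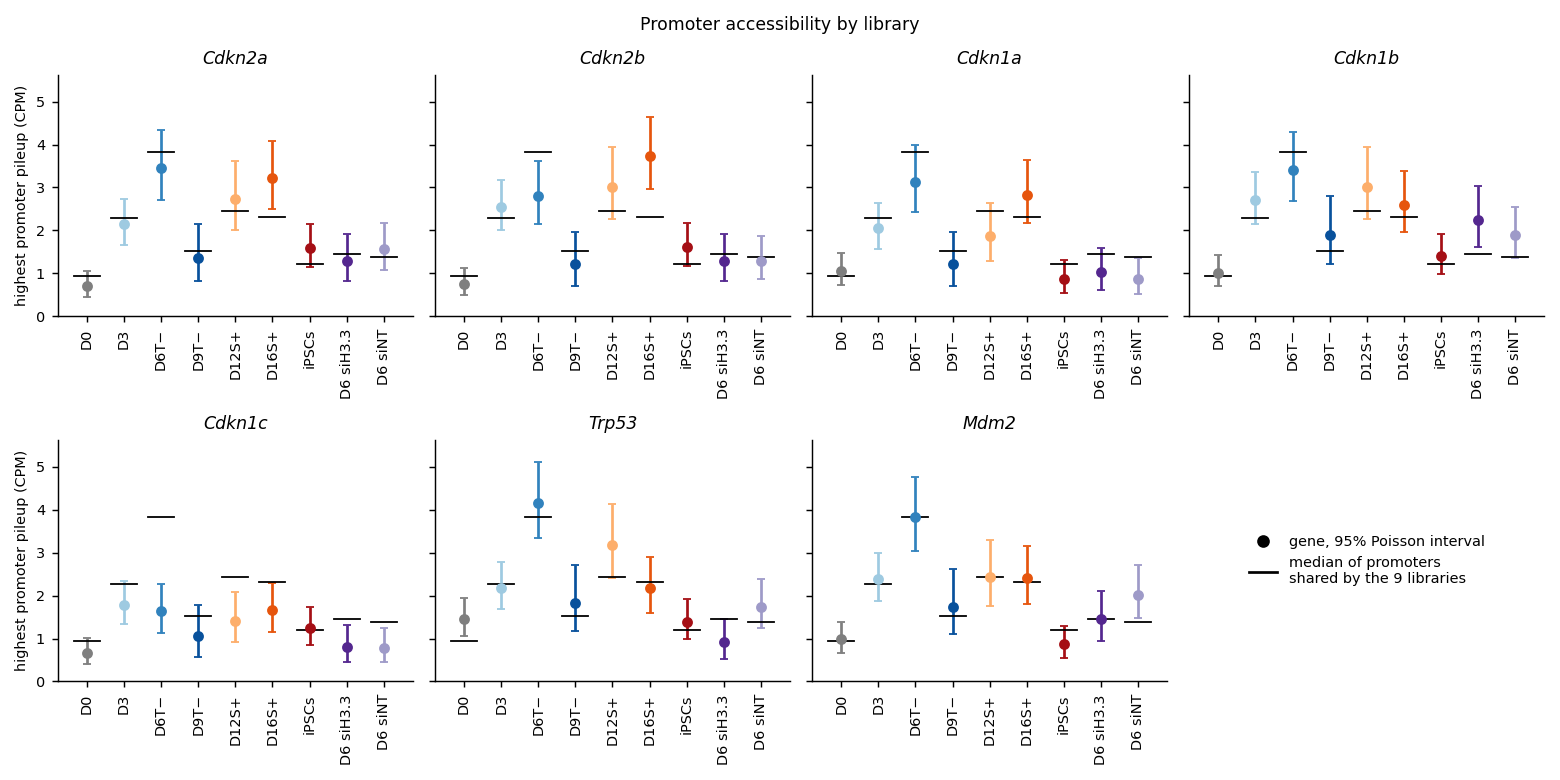
Highest promoter pileup (y axis, CPM) of the 7 genes in the 9 libraries (x axis, 1 library each). Points are the genes with 95% exact Poisson intervals for counting error, and black lines are the median of the promoters open in all 9 libraries. The points broadly follow the lines, from 0.946 CPM at D0 up to 3.83 CPM at D6T− and down to 1.20 CPM in iPSCs, and Cdkn1c lies below its line in 8 of 9 libraries.

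The INK4 inhibitors lie side by side on chromosome 4 and share their flanks, so their windows were treated as a single locus. Cdkn2a (ENSMUSG00000044303.5, chr4:88920377-88940557, minus strand) has an upstream Arf start and an Ink4a start 12461 bp further along the gene. Cdkn2b (ENSMUSG00000073802.4, chr4:88952198-88956941, minus strand) encodes p15Ink4b. The promoter sequences of both Cdkn2a starts are shown because the starts differed in when they were called open. They are RefSeq sequences (GRCm38.p6), each matched once and without mismatch to mm9, written 5′ to 3′ on the minus strand from 250 bases before to 50 after the start. Capitals mark GC boxes (GGGCGG on either strand), the element bound by SP and KLF factors.
Cdkn2a Arf start, chr4:88940474-88940773: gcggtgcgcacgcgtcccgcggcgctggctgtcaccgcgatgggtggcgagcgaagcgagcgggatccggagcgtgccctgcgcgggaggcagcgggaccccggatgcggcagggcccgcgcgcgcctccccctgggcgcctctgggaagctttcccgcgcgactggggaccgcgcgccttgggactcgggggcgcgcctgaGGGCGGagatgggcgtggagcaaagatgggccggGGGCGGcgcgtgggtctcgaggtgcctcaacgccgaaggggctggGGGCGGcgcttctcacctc
Cdkn2a Ink4a start, chr4:88928047-88928346: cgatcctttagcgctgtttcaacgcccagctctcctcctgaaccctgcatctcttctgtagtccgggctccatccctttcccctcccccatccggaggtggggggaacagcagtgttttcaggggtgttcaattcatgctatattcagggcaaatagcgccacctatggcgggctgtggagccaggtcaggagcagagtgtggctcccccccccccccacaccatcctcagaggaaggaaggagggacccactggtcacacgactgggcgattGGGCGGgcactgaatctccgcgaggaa
The Arf promoter held 3 GC boxes and the Ink4a promoter held 1, against 35.7% of the 32851 RefSeq promoters with at least 1. The ratio of observed to expected CpG was 1.04 for Arf, at percentile 95.9 of those promoters, and 0.442 for Ink4a, at percentile 54.2.

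The Arf start was open in all 9 libraries, at 0.694 CPM (D0), 2.15 (D3), 3.46 (D6T−), 0.984 (D9T−), 2.73 (D12S+), 3.21 (D16S+), 1.58 (iPSCs), 1.29 (D6 siH3.3) and 1.56 (D6 siNT). The Ink4a start was not called at D0, where the lowest pileup called anywhere in the library was 0.347 CPM, and it was open in the 8 other libraries. The shared promoters had a median of 0.946 CPM at D0 and 2.28 at D3, so a weakly open start could fall below that pileup at D0. A missing call at D0 is therefore not a measure of a closed start. The Ink4a start measured 0.827 CPM (D3), 2.15 (D6T−), 1.36 (D9T−), 1.42 (D12S+), 2.03 (D16S+), 0.489 (iPSCs), 1.07 (D6 siH3.3) and 0.689 (D6 siNT). At D9T− it was the higher of the starts, and the promoter value of Cdkn2a was taken there. In iPSCs the Ink4a start was low while the Arf start stood at percentile 81.9 of the promoters with a region.

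The Cdkn2b promoter measured 0.757 CPM (D0), 2.55 (D3), 2.80 (D6T−), 1.21 (D9T−), 3.01 (D12S+), 3.73 (D16S+), 1.62 (iPSCs), 1.29 (D6 siH3.3) and 1.29 (D6 siNT). Relative to the median of the shared promoters it was 0.800 (D0), 0.732 (D6T−), 1.61 (D16S+) and 1.34 (iPSCs). The highest promoter value of Cdkn2a was 0.733 times the median at D0, 0.902 (D6T−), 1.39 (D16S+) and 1.31 (iPSCs). Both INK4 genes thus sat below the median of the shared promoters at D0, D6T− and D9T− and above it in the D12S+, D16S+ and iPSC libraries. At D3 they fell on either side, at 0.942 (Cdkn2a) and 1.12 (Cdkn2b). Among all promoters with a region at D6T− they stood at percentiles 61.9 and 51.6. Within their own libraries they went from percentile 36.0 (Cdkn2a) and 42.6 (Cdkn2b) at D0 to 81.1 and 87.5 (D16S+). 

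The 17 joined regions of the locus (regions of the 9 libraries that overlap, taken as 1) included some that were highest in the early libraries. A region 36.7 kb past the Arf start, in an intron of the noncoding gene Gm12606, measured 0.883 CPM (D0), 0.893 (D3), 3.04 (D6T−), 0.833 (D9T−) and 0.568 (D12S+). It was not called at D16S+, in iPSCs or in either siRNA library. A region at −7.7 kb, between Cdkn2a and Cdkn2b, measured 1.04 CPM (D0), 1.62 (D3), 2.62 (D6T−) and 0.738 (D12S+), and it was called in both siRNA libraries, at 0.643 CPM (D6 siH3.3) and 0.918 CPM (D6 siNT), but at neither D9T−, D16S+ nor iPSCs. At −9.1 kb no region was called at D0, D9T− or D6 siNT, and the values were 0.695 CPM (D3), 0.561 (D6T−), 0.965 (D12S+), 1.04 (D16S+), 0.752 (iPSCs) and 0.696 (D6 siH3.3). The window around the +36.7 kb summit is shown with its AP-1 motifs (TGANTCA on either strand, the site of Fos and Jun factors) in capitals, read from the plus strand of mm9.
Cdkn2a +36.7 kb, chr4:88903717-88904016: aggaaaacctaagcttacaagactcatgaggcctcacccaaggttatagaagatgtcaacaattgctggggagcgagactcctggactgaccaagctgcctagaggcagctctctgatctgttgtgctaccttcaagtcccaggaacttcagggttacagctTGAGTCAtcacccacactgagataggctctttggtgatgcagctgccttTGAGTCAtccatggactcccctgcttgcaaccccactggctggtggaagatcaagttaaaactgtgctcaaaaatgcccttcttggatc
It held 2 AP-1 motifs, which were found in 38.4% of windows of the same length over D6T− regions and in 7.81% of RefSeq promoters.

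**Figure D2:**
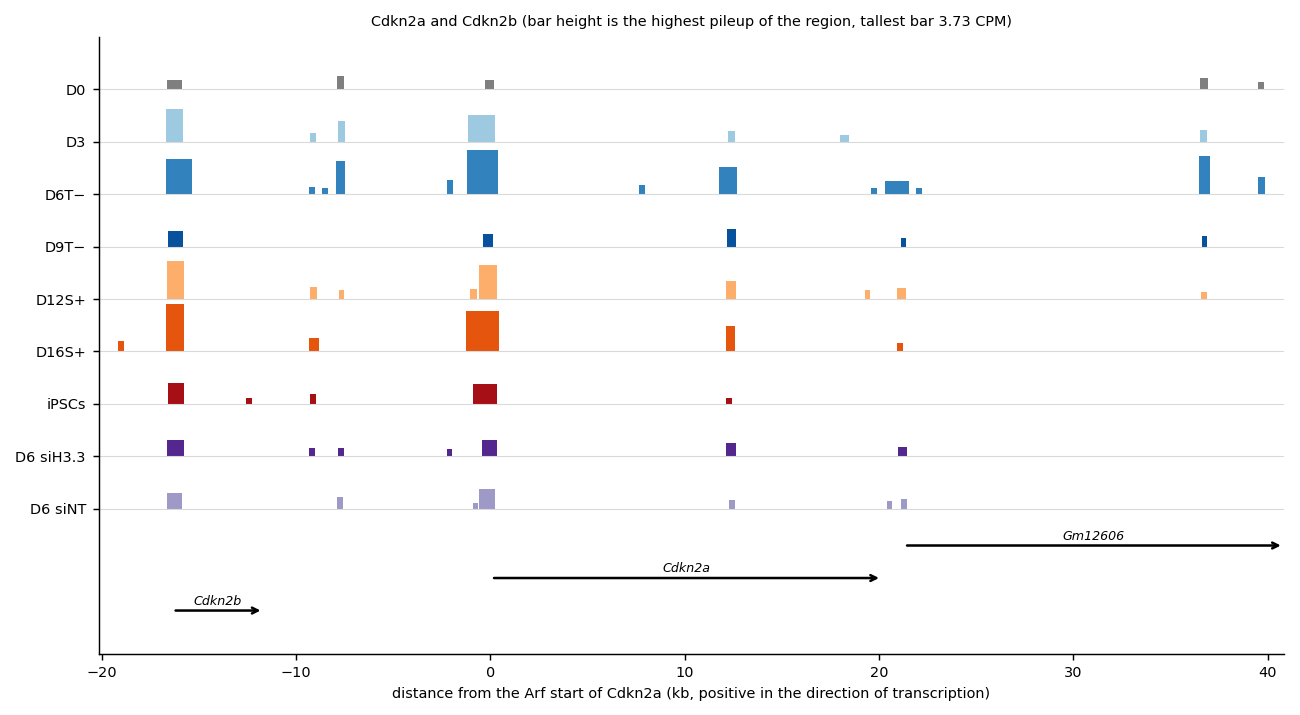
Accessible regions over Cdkn2a and Cdkn2b in the 9 libraries (rows), against the distance from the Arf start (x axis, kb, positive in the direction of transcription). Each bar spans a region and its height is the highest pileup in CPM, up to 3.73 for Cdkn2b at D16S+, and arrows are genes. The bar at 12.4 kb, the Ink4a start, is missing at D0, and the bar at 36.7 kb is missing at D16S+, in iPSCs and in both siRNA libraries.

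The CIP/KIP inhibitors were described next. Cdkn1a (ENSMUSG00000023067.7, chr17:29227924-29237667, plus strand) encodes p21, the main effector of p53 in growth arrest, and has 3 annotated starts. The upstream start was not called at D0 or in iPSCs, where the lowest pileups called were 0.347 and 0.376 CPM. The medians of the shared promoters were also low there (0.946 and 1.20 CPM), so a weak start could be missed. The upstream start measured 0.695 CPM (D3), 1.08 (D6T−), 0.908 (D9T−), 0.795 (D12S+), 1.56 (D16S+), 0.589 (D6 siH3.3) and 0.734 (D6 siNT). The main start, 2793 bp further along, was open in all 9 libraries, at 0.725 CPM (D0), 2.05 (D3), 3.13 (D6T−), 1.21 (D9T−), 1.87 (D12S+), 2.83 (D16S+), 0.865 (iPSCs), 1.02 (D6 siH3.3) and 0.872 (D6 siNT). The upstream start was thus the lower in every library where both were called. No region covered the third start, which lies 7228 bp into the gene. At D0 the highest promoter region was neither of these but an intronic one at 4.5 kb, with 1.04 CPM, which overlaps the 3 kb upstream of the third start.

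Both RefSeq promoters of Cdkn1a are shown, on the plus strand of mm9, since they differ in the letters that p53 and SP factors read. In the upstream one, capitals mark a match to the p53 response element (2 half-sites of 10 bases, 0 to 13 bases apart, at most 1 mismatch in all). In the main one, they mark GC boxes.
Cdkn1a upstream start, chr17:29227674-29227973: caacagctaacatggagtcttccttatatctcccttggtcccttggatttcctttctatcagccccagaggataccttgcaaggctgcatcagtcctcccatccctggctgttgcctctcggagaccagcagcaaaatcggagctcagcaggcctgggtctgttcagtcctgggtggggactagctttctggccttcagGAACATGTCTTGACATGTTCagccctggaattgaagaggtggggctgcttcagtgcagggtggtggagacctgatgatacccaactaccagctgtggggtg
Cdkn1a main start, chr17:29230464-29230763: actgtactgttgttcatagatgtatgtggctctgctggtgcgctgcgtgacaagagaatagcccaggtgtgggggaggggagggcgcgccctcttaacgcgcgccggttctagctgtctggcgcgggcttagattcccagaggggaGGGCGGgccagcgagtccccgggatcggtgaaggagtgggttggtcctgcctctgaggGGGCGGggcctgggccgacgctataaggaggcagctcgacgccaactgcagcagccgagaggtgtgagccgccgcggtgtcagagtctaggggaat
Of the 8 RefSeq promoters of these genes, the upstream one of Cdkn1a was the only one with a p53 match, which 1.09% of all RefSeq promoters had. Its ratio of observed to expected CpG was 0.0892 (percentile 11.8), against 0.786 (percentile 77.9) for the main promoter. None of the 8 promoters held an AP-1 motif. Cdkn1c has no RefSeq promoter in the table used.

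Upstream of Cdkn1a, a region at −10.1 kb was not called at D0 or D9T−. The lowest pileups called there were 0.347 and 0.530 CPM, so a weak region could be missed. The −10.1 kb region measured 0.959 CPM (D3), 2.71 (D6T−), 1.93 (D12S+), 3.16 (D16S+), 1.43 (iPSCs), 0.964 (D6 siH3.3) and 0.643 (D6 siNT). At D12S+, D16S+ and in iPSCs it was higher than either start of the gene, at D12S+ by a small margin (1.93 against 1.87 CPM at the main start). It lies within 3 kb upstream of Gm16197, a lincRNA that runs away from Cdkn1a, so its gene cannot be told from position. The region at −11.9 kb, over the first exon of Gm16197, was called in all libraries but D9T−, between 0.725 CPM (D0) and 2.01 (D6T−). It held a further p53 match, and such matches were also found at Mdm2; their letters on the plus strand are given side by side, all in capitals.
Cdkn1a −11.9 kb, chr17:29215984-29216003: AGGCAAGCCCGGGCAAGGCC
Mdm2 −0.8 kb (called at D6T− only), chr10:117148726-117148745: GGACTTGCCCGGAATTGCCC
Mdm2 −7.0 kb, chr10:117154792-117154811: GGACATGTTTGTACATGTTT
Windows of the same length over D6T− regions held a p53 match in 1.44% of cases, and 5 of the 103 joined regions around these genes did. Besides those listed, they were the region over the upstream Cdkn1a start and a region at −14.0 kb of Cdkn1c, over an exon of Slc22a18.

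Cdkn1b (ENSMUSG00000003031.8, chr6:134870419-134875531, plus strand) encodes p27, an inhibitor of CDK2 complexes in resting cells. Its promoter measured 1.01 CPM (D0), 2.71 (D3), 3.41 (D6T−), 1.89 (D9T−), 3.01 (D12S+), 2.60 (D16S+), 1.39 (iPSCs), 2.25 (D6 siH3.3) and 1.88 (D6 siNT). Of the 7 genes it kept the narrowest range of percentiles, from 61.2 (D6T−) to 83.1 (D6 siH3.3). A region at 8.3 kb, past the end of the gene, was close to the promoter in height. It measured 0.883 CPM (D0), 2.08 (D3), 4.02 (D6T−), 1.29 (D9T−), 3.18 (D12S+), 3.73 (D16S+), 1.54 (iPSCs), 2.79 (D6 siH3.3) and 1.33 (D6 siNT). No other annotated gene lies within the window of Cdkn1b.

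Cdkn1c (ENSMUSG00000037664.6, chr7:150644255-150646955, minus strand) encodes p57, an imprinted inhibitor. It had the lowest promoter of the 7 genes in 8 of the 9 libraries (all but iPSCs), with 0.662 CPM (D0), 1.79 (D3), 1.64 (D6T−), 1.06 (D9T−), 1.42 (D12S+), 1.65 (D16S+), 1.24 (iPSCs), 0.803 (D6 siH3.3) and 0.780 (D6 siNT). Its level at D6T− was 0.427 times the median of the shared promoters, and in iPSCs it was 1.03 times. All 6 joined regions called at D0 alone in these windows lay around Cdkn1c, some of them in introns of its neighbour Slc22a18. They held 11 to 16 tags (0.347 to 0.504 CPM), close to the lowest pileup called at D0, 0.347 CPM.

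Trp53 (ENSMUSG00000059552.6, chr11:69393861-69405375, plus strand) encodes p53 and starts head to head with Wrap53, whose gene overlaps its upstream flank. The highest region of the promoter had its summit between −1050 and −956 bp of the Trp53 start in all 9 libraries, inside Wrap53, and it is the promoter region of both genes. It measured 1.45 CPM (D0), 2.18 (D3), 4.16 (D6T−), 1.82 (D9T−), 3.18 (D12S+), 2.17 (D16S+), 1.39 (iPSCs), 0.911 (D6 siH3.3) and 1.74 (D6 siNT). A second, joined region, which runs from around the annotated start into the gene, was called in all libraries but D9T−. Its highest values were 0.568 CPM (D0), 1.55 (D3), 2.66 (D6T−), 1.25 (D12S+), 1.32 (D16S+), 0.903 (iPSCs), 0.857 (D6 siH3.3) and 0.918 (D6 siNT). It joins a region over the start with another near 1.1 kb, and at D0 only the latter was called (0.976 to 1.264 kb). The region over the start measured 0.827 CPM (D3), 1.54 (D6T−), 1.25 (D12S+), 0.865 (iPSCs), 0.589 (D6 siH3.3) and 0.689 (D6 siNT). At D16S+ a single region spanned both. The region inside Wrap53 was higher than the joined region in every library where both were called. At D0 it stood at percentile 87.1 of the promoters with a region, the highest of the 7 genes there.

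Mdm2 (ENSMUSG00000020184.8, chr10:117125944-117147814, minus strand) is itself a p53 target. Its promoter measured 0.977 CPM (D0), 2.38 (D3), 3.83 (D6T−), 1.74 (D9T−), 2.44 (D12S+), 2.41 (D16S+), 0.865 (iPSCs), 1.45 (D6 siH3.3) and 2.02 (D6 siNT). It lay close to the median of the shared promoters up to D16S+, from 1.00 to 1.15 times, and at 0.719 times in iPSCs. A distal region at −10.9 kb was higher than the promoter at D0, D3, D6T− and D6 siH3.3, with 1.32 CPM (D0), 2.51 (D3), 5.56 (D6T−), 1.51 (D9T−), 1.36 (D12S+), 1.82 (D6 siH3.3) and 1.47 (D6 siNT). It was not called at D16S+ or in iPSCs, whose lowest called pileups were 0.425 and 0.376 CPM. The D6T− value was the highest of any joined region around the 7 genes. A weaker region at −7.0 kb was called in all 9 libraries, from 0.643 CPM (D6 siH3.3) to 2.80 CPM (D6T−), and held the p53 match given above, 1 AP-1 motif and 2 TEAD motifs (GGAATG on either strand). The TEAD motif was present in 21.4% of windows over D6T− regions.

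**Figure D3:**
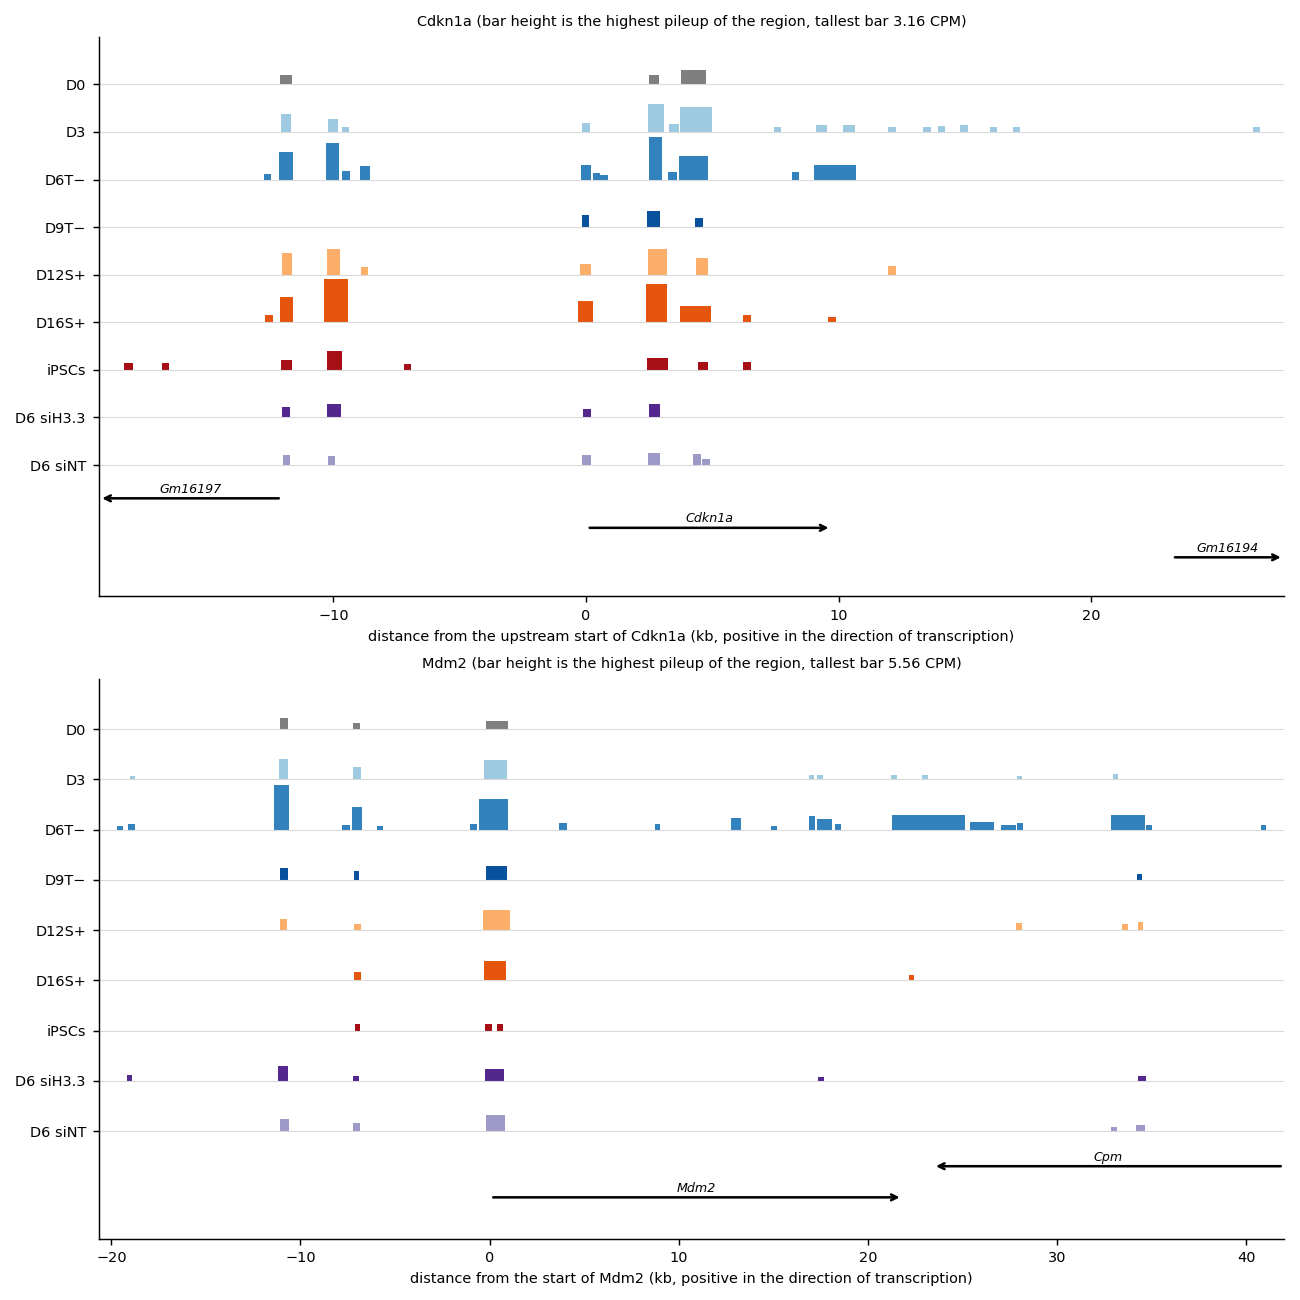
Accessible regions over Cdkn1a (top) and Mdm2 (bottom) in the 9 libraries (rows), against the distance from the upstream start of each gene (x axis, kb, positive in the direction of transcription). Bars span regions, heights are the highest pileup in CPM (tallest 3.16 and 5.56), and arrows are genes. The −10.1 kb bar of Cdkn1a is missing at D0 and D9T−, and the −10.9 kb bar of Mdm2 is missing at D16S+ and in iPSCs.

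In all, the windows of the 6 loci held 103 joined regions, of which 23 were at a promoter of the 7 genes, 15 in a gene body and 65 in a flank. Only 9 were called in all 9 libraries and 53 were called in 1 library, 20 of them in D6T−, 13 in D3, 9 in iPSCs and 6 in D0. Mdm2 accounted for 13 of the 20 D6T− ones, Cdkn1a for 7 of the 13 D3 ones, and Trp53 for 4 of the 9 iPSC ones. D6T− and D3 also had the most regions over the whole genome, and their part in these counts was not tested. Of 26 D0 regions in the windows, 12 (46.2%) had no overlapping region in iPSCs, against 71.7% of all D0 regions. Of 40 iPSC regions, 25 (62.5%) had none at D0, against 63.5% of all. The share of D0 regions without a partner in iPSCs was thus smaller around these genes than over the genome, a difference that was not tested, and that of iPSC regions was close to the background. Among the joined regions called at D0 and not in iPSCs, 4 of 11 held an AP-1 motif, against 39.2% of such D0 regions in the genome. In the other direction it was 2 of 21, against 8.26%.

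The D0 library was then set against later ones at the promoters, with 2-fold as the mark. All 3 of these comparisons share the D0 library. At D3, 5 of the 7 genes were at least 2-fold higher than at D0, which held for 61.6% of 12586 protein-coding promoters, and none was 2-fold lower, against 0.143% of all. Cdkn2b was 3.37-fold higher (95% interval 2.10 to 5.57) and Cdkn2a 3.10-fold (1.89 to 5.28), whereas Trp53 was 1.51-fold higher (1.02 to 2.24) and turned to 0.624-fold once the libraries were scaled by the shared promoters. Cdkn1a, at 1.97-fold before scaling and 0.817-fold after, missed the mark with a D0 value from the intronic region at 4.5 kb. At its main start it was 2.83-fold higher (1.73 to 4.78), or 1.17-fold after scaling, and a promoter of 1 kb put 6 of the 7 genes past 2-fold. At D6T− all 7 were at least 2-fold higher, as were 89.5% of promoters, and none was lower, against 0.0400%. The values ran from 2.47-fold for Cdkn1c to 4.99-fold for Cdkn2a, and the median of all promoters was 3.80-fold. Once each library was scaled by the shared promoters, no gene of the 7 passed 2-fold in either direction at D3 or D6T−. Over all promoters the scaled shares were 1.19% higher and 9.66% lower at D3, and 1.29% higher and 11.0% lower at D6T−, so that few promoters of any kind were 2-fold higher. After scaling, 6 of the 7 (all but Cdkn2a) had lower values at D6T− than at D0, although Cdkn1a was 1.07-fold at its main start.

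In iPSCs, Cdkn2a (2.28-fold, 1.33 to 4.01) and Cdkn2b (2.14-fold, 1.27 to 3.68) were at least 2-fold higher than at D0, against 10.4% of promoters. None was 2-fold lower, against 0.947% of all. Their ratios were at percentiles 94.5 and 92.4 of all protein-coding promoters, and Cdkn1c followed at 1.87-fold (1.05 to 3.41) and percentile 86.0. On the other side were Cdkn1a at 0.832-fold, Mdm2 at 0.885-fold and Trp53 at 0.960-fold, at percentiles 11.8, 15.6 and 21.5. The intervals of these 3 held 1. The Cdkn1a ratio compares different regions, since its D0 value came from the intronic region at 4.5 kb. After scaling, Cdkn2a was 1.79-fold and Cdkn2b 1.68-fold higher, and neither passed 2-fold, which 3.19% of promoters did upwards and 3.29% downwards. The shared promoters shifted by 1.27-fold from fibroblasts to iPSCs. The ratios of the INK4 genes, Cdkn1c and Cdkn1b (1.38-fold, 0.836 to 2.29) lay above this shift, and those of Trp53, Mdm2 and Cdkn1a below. Only the interval of Cdkn2a lay wholly above it, and the intervals of the other genes held it. At its main start in both libraries Cdkn1a was 1.19-fold higher (0.640 to 2.23), or 0.938-fold after scaling.

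**Figure D4:**
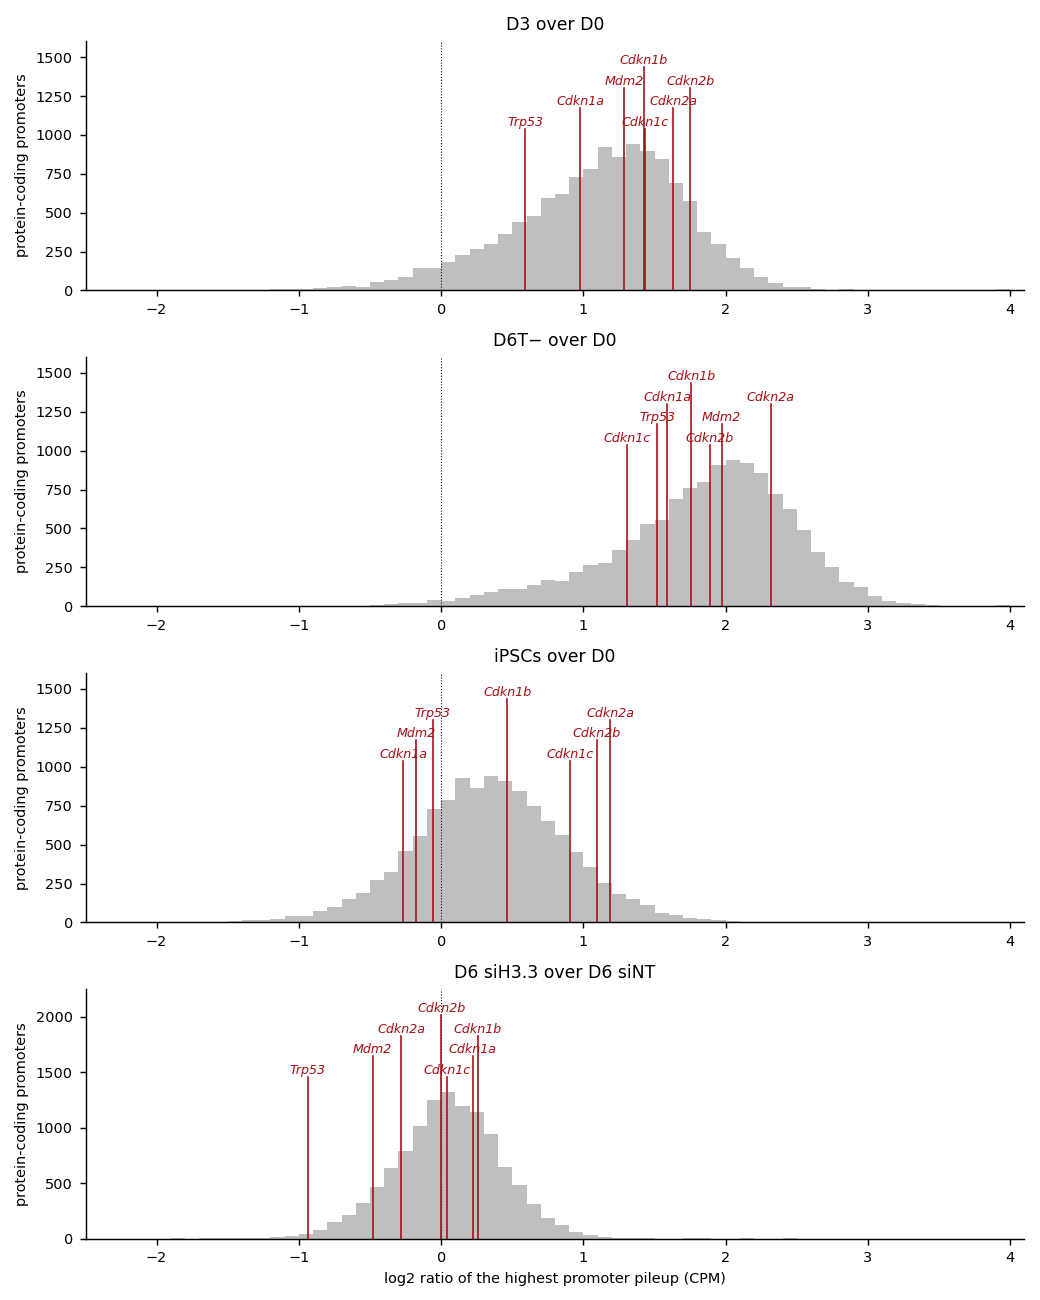
Log2 ratio of the highest promoter pileup (x axis) for all protein-coding promoters called in both libraries (grey, number of promoters on the y axis) and for the 7 genes (red lines), in 4 comparisons with 1 library a side. The dotted line is a ratio of 1. In the D3 and D6T− panels most promoters and all 7 genes lie right of the dotted line, in the iPSC panel Cdkn2a is at 1.19 and Cdkn1a (from different regions) at −0.27, and in the siRNA panel Trp53 is at −0.94.

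Knockdown of H3.3 was compared with the non-targeting control at day 6. The question was whether early loss of this histone variant alters opening at the barrier genes by then. The paper reports that the knockdown was transient and confined to the early phase. The values therefore need not reflect loss of H3.3 at day 6 itself. None of the 7 promoters was 2-fold higher or lower at D6 siH3.3, against 0.584% and 0.392% of 11471 protein-coding promoters. The ratios were 0.824 for Cdkn2a, 1.00 for Cdkn2b, 1.17 for Cdkn1a, 1.20 for Cdkn1b and 1.03 for Cdkn1c, and each of these intervals held 1. Scaling took Cdkn2b to 0.952 and Cdkn1c to 0.980. For Cdkn2b the interval ran from 0.555 to 1.79, so a moderate change in either direction was not detectable at this depth. Mdm2 was at 0.716 (0.426 to 1.18) and Trp53 at 0.522 (0.276 to 0.947), which is percentile 0.597 of all promoter ratios. The Trp53 value rests on 17 tags against 38, and after scaling by the shared promoters it was 0.497, just past 2-fold, as were 0.619% of promoters downwards and 0.340% upwards. The second, joined region of Trp53, with its highest pileup near 1.1 kb in both siRNA libraries, had a ratio of 0.933 (0.452 to 1.90). Over the annotated start the values were 0.689 CPM (D6 siNT) and 0.589 CPM (D6 siH3.3). The lower pileup with an interval below 1 was that of the region inside Wrap53. Its window is shown on the plus strand of mm9 with CpG dinucleotides in capitals.
Trp53 −1.0 kb, chr11:69392675-69392974: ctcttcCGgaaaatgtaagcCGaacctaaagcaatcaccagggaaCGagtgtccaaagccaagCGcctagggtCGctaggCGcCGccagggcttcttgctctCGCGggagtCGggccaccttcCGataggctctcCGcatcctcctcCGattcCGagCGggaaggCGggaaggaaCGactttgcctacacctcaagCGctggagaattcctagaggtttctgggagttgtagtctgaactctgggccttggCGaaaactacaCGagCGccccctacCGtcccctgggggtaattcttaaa

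Over the whole windows, promoters included, 20 joined regions were called in both siRNA libraries. The region at 8.3 kb of Cdkn1b was at least 2-fold higher at D6 siH3.3, with 52 tags against 29 and a ratio of 2.09 (1.30 to 3.42), which scaling by the shared promoters took to 1.99, just under 2-fold, and none of the 20 was 2-fold lower. Of the 35156 regions shared by these libraries in the genome, 2.09% were at least 2-fold higher and 0.432% at least 2-fold lower. The 20 ratios ran from 0.522 to 2.09 with a median of 0.947, and the median of all shared regions was 1.06. The interval lay above 1 for the Cdkn1b region alone and below 1 for the Trp53 region alone. In the simulated siRNA comparison the interval held 1 for 96.05% of unchanged promoters. Among 20 such intervals a miss can therefore arise from counting error alone. The Ink4a start had the next highest ratio, 1.56 (0.757 to 3.27), with an interval that held 1. The Cdkn1b window is shown on the plus strand of mm9 with its CCAAT boxes (CCAAT on either strand, present in 32.9% of windows over D6T− regions) in capitals.
Cdkn1b +8.3 kb, chr6:134878544-134878843: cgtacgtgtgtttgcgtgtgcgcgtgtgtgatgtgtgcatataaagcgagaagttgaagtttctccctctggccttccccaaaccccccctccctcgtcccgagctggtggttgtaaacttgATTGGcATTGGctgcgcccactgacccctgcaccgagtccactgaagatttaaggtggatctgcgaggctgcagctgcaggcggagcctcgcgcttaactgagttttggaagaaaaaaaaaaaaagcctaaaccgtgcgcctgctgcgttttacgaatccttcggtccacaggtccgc
Of 30 D6 siNT regions in the windows, 8 had no overlapping region at D6 siH3.3, against 23.9% of all its regions. In the other direction it was 5 of 27, against 24.8%. Presence of regions around these genes was thus near the background in both directions.

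**Figure D5:**
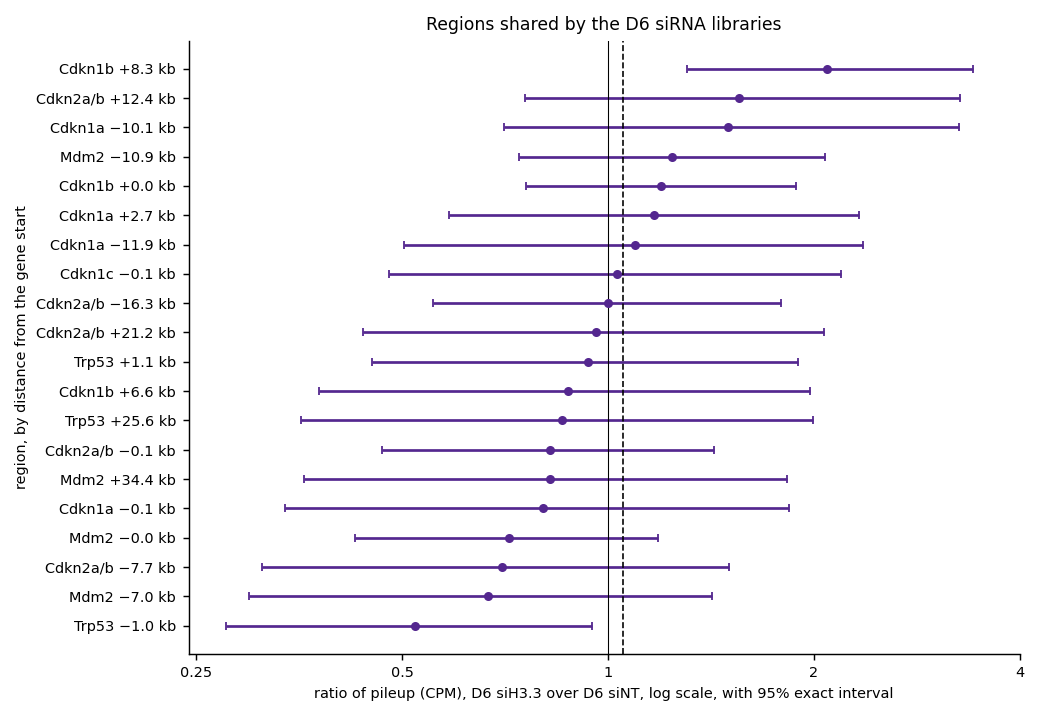
Ratio of pileup (CPM) at D6 siH3.3 over D6 siNT (x axis, log scale) for the 20 joined regions called in both libraries (y axis, by distance from the gene start, with Cdkn2a and Cdkn2b measured from the Arf start). Points are ratios with 95% exact binomial intervals for counting error, the solid line is 1 and the dashed line is the shift of the shared promoters, 1.05. The interval of Cdkn1b at 8.3 kb lies above both lines and that of Trp53 at −1.0 kb below both.

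The wider pathway was read from 6 lists with 77 annotated genes: p53 regulators, p53 targets, relatives of the CDK inhibitors, cyclins with CDKs and RB genes, regulators of Ink4a and Arf, and the senescence secretory genes. A promoter region was present in all 9 libraries for 58 of them. At D3, 48 of 63 measured genes (76.2%) were at least 2-fold higher than at D0, against 61.6% of all promoters. At D6T− it was 60 of 64 (93.8%) against 89.5%, and in iPSCs 5 of 60 (8.33%) against 10.4%, both near the background. None was 2-fold lower in these 3 comparisons. After scaling, 1 was higher and 2 were lower at D3 (1.19% and 9.66% of all promoters), 0 and 7 at D6T− (1.29% and 11.0%), and 2 and 1 in iPSCs (3.19% and 3.29%). The retinoblastoma gene Rb1 had the largest ratio at D3, with 0.410 CPM (D0) and 2.45 (D3), ahead of Polk and Ezh2. Gadd45a, a p53 target of the DNA damage response, had the largest at D6T−, with 1.26 CPM (D0) and 8.93 (D6T−). At the other end stood Hmga2, Plaur and Mdm4 at D3 and Tbx2, Mmp13 and Cbx7 at D6T−, with Tbx2 at 0.410 and 0.374 CPM. In iPSCs, Cdk2, Gadd45a and Rb1 had the largest ratios over D0, from 2.70 to 2.48, and Hmga2, Tbx3 and Plk2 the smallest, from 0.563 to 0.693.

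The secretory genes had the lowest share of open promoters of the 6 lists in all 9 libraries, with 9 of 13 at D0 and 6 of 13 in iPSCs, where all protein-coding genes had 58.0% and 63.9%. Their list also counts Lmnb1, a nuclear lamina gene, which had a promoter region in all 9 libraries. Under H3.3 knockdown, 1 of 67 pathway genes was at least 2-fold higher and 1 was 2-fold lower (1.49% each), against 0.584% and 0.392% of all promoters. After scaling it was 0 and 2, against 0.340% and 0.619%. Phlda3, a p53 target that restrains Akt, had a ratio of 2.04, from 0.734 CPM in the control. Atr, the kinase that signals replication stress to p53, measured 1.97 CPM with the non-targeting siRNA and 0.911 CPM with siRNA against H3.3. Cbx7 and Ccne1 followed Phlda3 upwards, and Wrap53, by the region it shares with Trp53, and Trp53inp1 followed Atr downwards.

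The promoter levels of the 7 genes over the 7 time-course libraries were compared as log2 CPM by Pearson's r, as a description, since all libraries carry the same genome-wide shift. Cdkn2a and Cdkn2b had r of 0.969, the highest of the pairs, and Cdkn1c and Trp53 had 0.619, the lowest. Over the 10154 protein-coding genes open in all 7, the median r was between 0.774 with Cdkn1c and 0.905 with Cdkn1b, so high values were common. The most alike were Fzd7 and Tank for Cdkn2a, Zfp882 and Uchl3 for Cdkn2b, Trappc5 and Plk2 for Cdkn1a, Rala and Uba3 for Cdkn1b, and Bahd1 and 1700054N08Rik for Cdkn1c. For Trp53 they were Wrap53, which is the same region, and Clpp, and for Mdm2 they were Zfp667 and Hk2. Their r ran from 0.986 to 1.00, and that of Cdkn1a includes its D0 value from the region at 4.5 kb.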

How the data were processed

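ATAC-Seq libraries of 9 conditions (1 library each) were analysed. Tags were 51 bp long and aligned to mm9, duplicates were removed with Picard (the submitters' processing notes also name STAR), and the authors called peaks per library with MACS2 2.1.0.20151222, without control or local background, at a q-value of 0.05. The deposited pileup is a signal not scaled for depth. The deposited fold enrichment is a ratio to tags spread evenly over the genome, and the deposited significance is −log10 of the p-value and q-value. Each file still holds a region over the whole mitochondrial chromosome, so 3.55% to 15.7% of the tags at most are mitochondrial and lower the CPM. The floor was 0.331 to 0.530 CPM.

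Within each library, peaks that overlapped were joined, and the pileup was divided by total tags. Genes came from GENCODE vM1. Intervals are 95% exact Poisson, or exact binomial for ratios. All members have their values given; pathway genes are the 3 with the largest and the 3 with the smallest ratio per comparison, and like genes are the 2 with the highest r. Regions and sequences singled out beyond that were chosen after their values were seen. The members and lists were chosen with earlier results of these data known. The functions were tested on simulated data: of promoters made 4-fold higher in the siRNA comparison (12263 promoters simulated) 100% passed 2-fold, of those made 4-fold lower 93.8%, and of unchanged ones 3.83%. Of measured promoters, 0.584% were 2-fold higher and 0.392% lower, so the simulation did not match the data. It set no calling floor, whereas measured ratios need a region called in both libraries. Analyses used Python 3.11.15, numpy 2.4.6, pandas 2.3.3, scipy 1.17.1 and matplotlib 3.10.9. Alternatives changed the promoter span, the starts, the number or strength of regions, the assignment by summit, the scaling, the fold and the window. The sequence of 1 region is not reported here.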

Additional observations from a re-analysis of the deposited data

How the results depend on the processing

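The presence of a promoter region kept within 49 to 63 of 63 pairs under every alternative. Requiring the summit inside the promoter left 5 genes to compare, of which 3 were past 2-fold at D3 and 1 in iPSCs. Scaling by the shared promoters left 0 genes higher at D3, 0 at D6T− and 0 in iPSCs, and 1 (Trp53) lower at D6 siH3.3. A fold of 1.5 also gave 1 lower at D6 siH3.3. The windows held 340 regions over the 9 libraries, and 201 when each library was cut to as many regions as D9T− has. With scaling, the log2 ratio of D6T− over D0 turned to −0.13 for Cdkn2b, −0.43 for Cdkn1a, −0.26 for Cdkn1b, −0.71 for Cdkn1c, −0.50 for Trp53 and −0.047 for Mdm2, because the shared promoters moved by 2.02. Of 104 alternative values of the 28 promoter ratios, 90 stayed within the counting interval, 8 left it without turning a called value, and 6 were those turned. No paired analysis was possible because each condition has 1 library, and for the same reason no replicate could be left out. Depth limits what was called: D9T− has the fewest tags and the highest floor.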
